A study of Homo sapiens with 4 samples.

Results

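Daoy is an established cell line grown from a human medulloblastoma, a malignant tumour of the cerebellum. The baseline described here is the set of gene names with at least 20 counted fragments in both RNA-seq libraries of Daoy cells infected with the pLKO control virus, and it held 10988 of the 59384 gene names counted. The series holds 4 libraries of Daoy cells, 2 infected with pLKO and 2 with a virus that delivers a hairpin RNA targeting FABP4 (shFABP4), and only the pLKO libraries were used. The labels give the pLKO cells as tumour cells of genotype WT, and no library of cells without virus was analysed here. Nothing states that the pLKO libraries, numbered 1 and 2, came from separate cultures, so the spread between them may be technical. The members were chosen by their fragment counts in these same libraries, so their levels are described without a test, and only the difference between the libraries was tested.

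Medulloblastomas are sorted by their expression into the WNT, SHH, Group 3 and Group 4 classes. The SHH class is thought to arise from granule neuron progenitors, cells of the developing cerebellum that divide in response to sonic hedgehog and are marked by ATOH1 and ZIC factors, and Daoy is often used as a laboratory model of that class. FABP4, the fatty acid binding protein that the hairpin was directed against, held 1 and 6 fragments in the pLKO libraries and was not a member.

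Library 1 held 8988961 counted fragments and library 2 held 13839885. At least 1 fragment was counted for 23372 and 25560 gene names, and 31562 names were at 0 in both. The minimum of 20 fragments corresponded to 2.22 and 1.45 CPM, the usual unit of a count scaled to the library total, and a count of 0 allows up to 3 fragments, or 0.334 and 0.217 CPM, for counting error only. Members held 99.4% and 99.3% of all fragments. Just inside the minimum lay 135 names whose lower count was 20, among them ANKRD44 with 20 and 21 fragments, and just outside lay 140 names whose lower count was 19, among them HOXD4 with 19 and 19.

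Protein-coding genes made up 9984 of the members, which is 51.5% of the 19402 coding names. The member counts of the coding gene lists below are to be read beside this share. The members also included 427 long non-coding RNAs, 238 pseudogenes, 6 RNAs of other types and 333 names without a type in the annotation used. Per exon length, coding members carried 93.8% and 93.6% of the signal, pseudogenes 3.52% and 3.69%, and long non-coding RNAs 0.773% and 0.750%. The unit for this is TPM, fragments per kilobase of exon scaled to the same sum in each library. Pseudogenes share near-identical sequence with their parent genes, so their counts are uncertain.

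A small number of names carried much of the signal. The 10 most abundant members held 10.2% of the members' fragments and 21.2% of their TPM, and the 100 most abundant held 30.6% and 46.3% (means of the 2 libraries). Members at 1000 TPM or more numbered 142 and carried 50.6% and 50.5% of the TPM, whereas 5163 members between 1 and 10 TPM carried 2.17% and 2.13%. The median member stood at 9.05 TPM in library 1 and 8.96 in library 2, and 1286 members (11.7%) averaged 100 TPM or more. The most abundant coding genes were short: the 100 highest by TPM had a median exon length of 1649 bases and a median GC content of 57.0%, against 5755.0 bases and 48.0% for coding members ranked below 1000. TPM is divided by length, so length and level are not independent here. Ranking by CPM in place of TPM kept 65 of the 100 highest names.

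**Figure D1:**
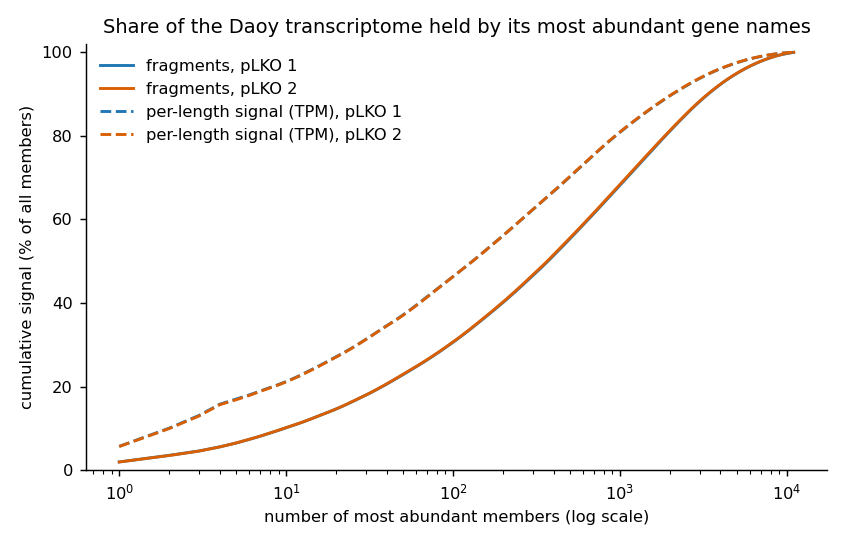
Cumulative share of the members' signal (vertical axis, percent) against the number of most abundant members counted (horizontal axis, log scale), for fragments (solid) and TPM (dashed) in each pLKO library. The curves of both libraries lie on each other, and the 100 most abundant members reach 30.6% of fragments and 46.3% of TPM.

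The highest coding member was FTL, the light chain of the iron store ferritin. FTL held 174685 fragments in library 1 and 267595 in library 2, or 56193 and 55823 TPM. MT2A, a metallothionein that binds zinc and copper, followed with 43364 and 42691 TPM. TMSB10, a thymosin that binds actin monomers, reached 29756 and 29362 TPM, and S100A6, a small calcium-binding protein, 26638 and 26735 TPM. All 4 were within a few percent between the libraries and lay above RPS21, the next coding gene, at 12020.0 and 11664 TPM. Of the 25 highest coding members, 13 were cytosolic ribosomal proteins. The rest included AP2S1, a subunit of the clathrin adaptor (8133 and 8129 TPM), LGALS1, which encodes galectin-1 (6924 and 7037 TPM), ROMO1, a mitochondrial inner-membrane protein (5943 and 5964 TPM), COX8A, a subunit of cytochrome c oxidase (4598 and 4615 TPM), and the actin-binding profilin PFN1 (4410 and 4310 TPM). GPX1, a glutathione peroxidase, stood at 6870.4 and 6712 TPM.

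**Figure D2:**
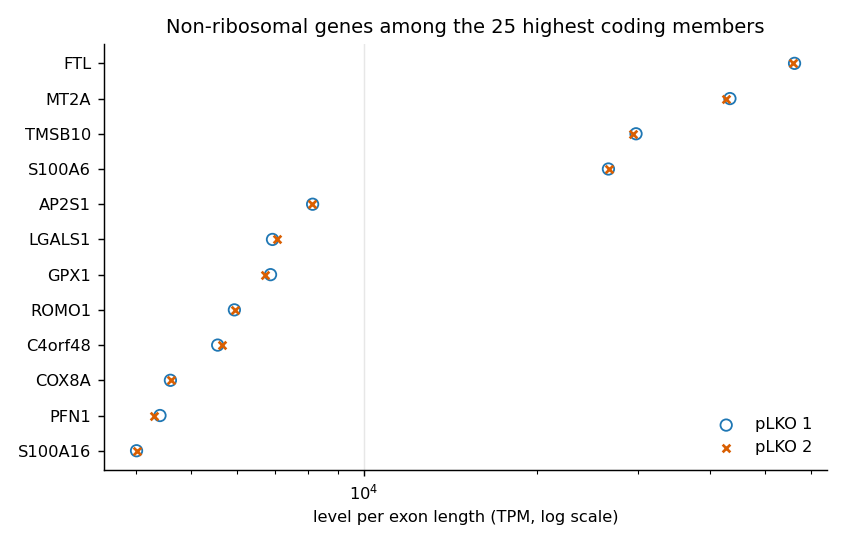
Level per exon length (TPM, log scale) of the 12 genes among the 25 most abundant protein-coding members that are not ribosomal proteins, in pLKO library 1 (circles) and pLKO library 2 (crosses). FTL at 56193 and 55823 TPM and MT2A at 43364 and 42691 TPM head the order, and the 2 marks of each gene lie close together.

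The bases before the start site are shown for 3 of these genes because their promoters can be read side by side. They come from the RefSeq promoter table (build GRCh38.p14), which holds 35116 promoters, and run 5′ to 3′ on the gene's strand up to the base before the start. Capitals mark TATAA between 42 and 19 bases before the start, and GGGCGG on either strand (written CCGCCC on the other), the core of the site bound by SP1-type factors. FTL lies at chr19:48965189-48965308 (plus strand), TMSB10 at chr2:84905536-84905655 (plus) and S100A6 at chr1:153535992-153536111 (minus).
FTL: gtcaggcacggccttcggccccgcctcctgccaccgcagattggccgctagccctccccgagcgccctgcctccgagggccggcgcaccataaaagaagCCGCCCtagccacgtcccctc
TMSB10: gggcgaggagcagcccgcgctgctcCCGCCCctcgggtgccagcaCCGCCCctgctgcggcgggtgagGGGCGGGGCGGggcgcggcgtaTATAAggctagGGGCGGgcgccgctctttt
S100A6: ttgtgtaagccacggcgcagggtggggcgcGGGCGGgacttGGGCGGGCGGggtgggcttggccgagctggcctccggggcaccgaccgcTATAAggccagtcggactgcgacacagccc
TATAA began 30 bases before the start in TMSB10 and S100A6, and these letters had no match in that window of FTL. Promoters were matched for 85 of the 100 highest coding members, and 13 of their 107 promoters (12.1%) held TATAA in the window. The share was 3.86% for the coding members after these up to rank 1000, 2.23% for other coding members, 8.09% for coding names that were no members and 3.91% over all promoters. GGGCGG on either strand, in the 250 bases before to 50 after the start, was held by 70.1%, 70.2%, 65.3% and 39.8% of these classes and by 42.6% of all promoters. A match describes the letters and is not evidence of binding.

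Only 2 of 11 metallothioneins were members, and they differed widely in level. MT2A held 141459 and 214748 fragments, and MT1X held 651 and 993, or 106 and 104 TPM. MT1G had 7 and 13 fragments, and MT1E, MT1F, MT1M, MT1H, MT1B and MT4 had 0 in both libraries. Of the MT1E exon bases, 0% are shared with another gene name in the annotation. Metallothioneins are close paralogs, so fragments that fit several of them are uncertain. The 250 bases before the start are shown for both members because metal response elements, the sites of the zinc sensor MTF1, can be counted in them. Capitals mark matches to TGCGCNC or TGCACNC on either strand and TATAA. MT2A lies at chr16:56608334-56608583 and MT1X at chr16:56682220-56682469, both on the plus strand (RefSeq, GRCh38.p14).
MT2A: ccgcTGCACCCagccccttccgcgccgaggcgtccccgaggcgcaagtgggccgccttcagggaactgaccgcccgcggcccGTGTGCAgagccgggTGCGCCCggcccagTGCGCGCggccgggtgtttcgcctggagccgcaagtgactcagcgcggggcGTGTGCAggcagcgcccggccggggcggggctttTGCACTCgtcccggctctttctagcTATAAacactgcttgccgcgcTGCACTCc
MT1X: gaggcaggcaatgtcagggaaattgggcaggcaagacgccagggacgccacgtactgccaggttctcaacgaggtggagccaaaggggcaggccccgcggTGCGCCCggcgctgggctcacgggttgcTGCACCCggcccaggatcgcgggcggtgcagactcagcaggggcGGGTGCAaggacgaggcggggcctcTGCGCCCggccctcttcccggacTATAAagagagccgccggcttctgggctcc
MT2A held 7 such matches and MT1X 4, with TATAA 29 and 30 bases before the start. At least 1 match was present in 33.6% of promoters of the 100 highest coding members, 36.0% of the next ones up to rank 1000, 31.9% of other coding members, 23.8% of coding names that were no members and 24.8% of all promoters.

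Cytosolic ribosomal proteins, the protein parts of the ribosome, formed the largest block. Of 79 genes, 77 were members, their median was 1105 TPM and together they carried 15.01% and 15.09% of all TPM. Beside this, the median over all coding members was 9.14 TPM. RPS21, RPS2 and RPS19 were highest, and RPS2 stood at 9429 and 9846 TPM. RPL36A (19 and 35 fragments) and RPL17 (1 and 8) fell below the minimum, and each shared more than 10% of its exon bases with another name. Many ribosomal protein genes start their mRNA at a C within a run of pyrimidines, a feature known as the 5′ terminal oligopyrimidine motif that couples translation to growth signals. The start regions of 7 of them are shown with those of 3 other abundant genes to show how the run varies, with and without a match in each set. Each line holds 30 bases, 10 before the start and 20 from it on (RefSeq, GRCh38.p14). Capitals mark a C within 3 bases of the start that is followed by at least 4 pyrimidines, and go on to the end of the unbroken run. Pyrimidines directly before that C are left in lower case.
RPS21: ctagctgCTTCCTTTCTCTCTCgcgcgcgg
RPL13A: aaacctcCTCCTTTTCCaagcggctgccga
RPLP2: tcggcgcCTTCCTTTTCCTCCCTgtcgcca
RPLP1: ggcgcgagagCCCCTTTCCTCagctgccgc
RPL35: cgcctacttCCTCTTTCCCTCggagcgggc
RPS12: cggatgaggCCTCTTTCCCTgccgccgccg
RPS15: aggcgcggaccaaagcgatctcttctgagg
AP2S1: tgggaggagtctctagagacaaggatctga
GPX1: ccggccagttaaaaggaggcgcctgctggc
HMGA1: ctgggtcgCTCTTTTTaagctcccctgagc
The ribosomal RPS15 start held no such run, the non-ribosomal HMGA1 start did, and AP2S1 had a C at its start with a shorter run. These lines were chosen after the sequences were seen, and HMGA1 has a second listed start without a match. The run was present in 53 of 76 promoters of ribosomal members (69.7%, with 61 of the 77 genes matched). The share was 35.0% for translation factor members (14 of 40 promoters) and 13.03% for all promoters. For the 66 non-ribosomal genes among the 100 highest coding members it was 20.3% (15 of 74 promoters).

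Translation factors were members in 36 of 39 cases, with a median of 83.4 TPM. EIF5A, which aids peptide bond formation, was highest at 2256 TPM, and EEF1A1, the main elongation factor, held 9324 and 16130 fragments. Nuclear-encoded subunits of the respiratory chain and ATP synthase were members in 76 of 83 cases (median 251 TPM) and carried 3.82% of all TPM. COX8A, NDUFB10 (2319 TPM), NDUFB7 and NDUFS5 led this list. The 15 mitochondrially encoded genes were all at 0 in both libraries, whereas MTATP6P1, a nuclear copy of the mitochondrial ATP6 region, held 7165 and 10504 fragments. Where mitochondrial fragments were assigned was not tested. Proteasome subunits were members in 30 of 34 cases (median 220 TPM, led by PSMB3 at 2151 TPM), and chaperones in 38 of 45 (median 49.1 TPM, led by the small heat shock protein HSPB1 at 2224 TPM). All 3 translation factors and all 4 proteasome subunits below the minimum shared more than 10% of their exon bases with another name. So did 4 of the 7 respiratory subunits and 5 of the 7 chaperones below it.

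Glycolysis enzymes and sugar carriers were members in 22 of 29 cases, with a median of 114 TPM. ENO1, an enolase, led with 2424 TPM, followed by TPI1 (1052 TPM), the pyruvate kinase PKM (1042 TPM) and LDHB (404 TPM). The aldolase ALDOA was at 0 in both libraries. GAPDH, often used as a reference gene, held 1055 and 1696 fragments. Antioxidant and iron-handling genes were members in 37 of 47 cases and carried 7.83% of all TPM, most of it from FTL. GPX1 (6791 TPM), PRDX5 (3631 TPM) and the glutathione transferase GSTP1 (2067 TPM) were next. FTH1, the heavy ferritin chain that assembles with FTL, held only 221 and 337 fragments (30.9 and 30.6 TPM). Among the 58 listed fatty acid genes, 34 were members (median 18.1 TPM). Within this list, ANGPTL4, a secreted inhibitor of lipoprotein lipase, was highest at 1828 TPM. ACADVL at 217, ELOVL1 at 201 and HADHA at 111 TPM came next in it. ECHS1, a fatty acid oxidation enzyme outside the list, held 3644 and 5529 fragments and ranked above ACADVL by TPM. FABP5 held 174 and 259 fragments and was the only fatty acid binding protein among the members. LPL was at 0 in both libraries.

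Several housekeeping names sat near 0, and a high overlap of exons with other gene names moved with this. Of coding names without shared exon bases, 47.1% were members. The share was 64.3% at up to 10% shared bases, 54.6% between 10% and 50%, 20.2% between 50% and 90%, and 0 of 195 names above 90%, of which 183 were at 0 in both libraries. The elongation factor EEF1G, with 99.7% of its exon bases shared, held 0 and 1 fragments, and the cytokine MIF, with 94.1% shared, held 0 and 0. ALDOA shared 54.2% of its bases, FTH1 63.2% and TUBA1B, a major tubulin with 7 and 5 fragments, 44.0%. GLUL (0 and 4 fragments) and MT1E shared 0%, so such counts also occurred without overlap. Abundant names shared bases too, 35.4% for COX8A and 25.9% for RPS2, so their levels carry the same uncertainty. The header of the count table records no option for fragments that touch several names and none for strand, and the part of the counting in these values was not tested. A level near 0 therefore describes the count assigned to a name. FTH1, GAPDH, TUBA1B and GLUL were chosen here after their values were seen.

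**Figure D3:**
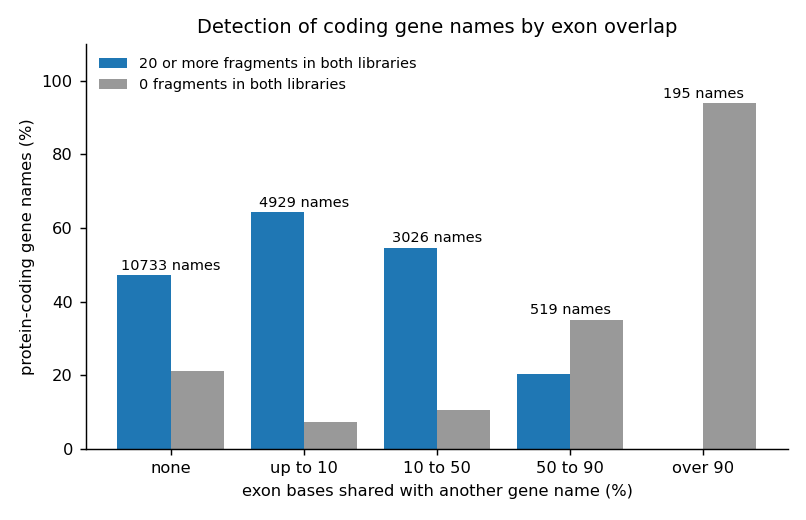
Percentage of protein-coding gene names (vertical axis) that were members (blue) or at 0 in both pLKO libraries (grey), by the percentage of their exon bases shared with another gene name (horizontal axis). Members make up 47.1% of names without shared bases, 64.3% at up to 10%, 54.6% between 10% and 50%, 20.2% between 50% and 90% and 0 of 195 above 90%.

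Markers of cerebellar identity were few and low. Of 26 granule neuron progenitor and cerebellar regional factors, 5 were members: LHX2 (37 and 43 fragments), ZIC2 (38 and 71), GBX2 (28 and 36), GLI1 (49 and 72) and MEIS1 (22 and 20). None of these 5 exceeded 3.64 TPM. ATOH1, which defines granule neuron progenitors, was at 0 in both libraries, as were OTX2, BARHL1, ZIC4 and LHX9. ZIC1 held 0 and 3 fragments, PAX6 3 and 10, and EN1 18 and 10. Only 1 of the 21 genes below the minimum shared more than 10% of its exon bases with another name. Of these factors, ZIC2 and GLI1 were members, while ATOH1 and ZIC1 were at or near 0. No tumour or other line was compared, so these counts give no verdict on the identity of the line.

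The hedgehog pathway was present at low levels. Of 21 genes, 13 were members, with a median of 4.45 TPM against 9.05 over all members. The ligand SHH held 16 and 17 fragments. The receptor PTCH1, itself a target of the pathway, held 9 and 14, below the minimum. The signal transducer SMO held 87 and 116 fragments (5.13 and 4.44 TPM), and the inhibitor SUFU 150 and 250 (6.11 and 6.60 TPM). Among the transcription factors, GLI1, a standard target, held 49 and 72 fragments (3.01 and 2.87 TPM), GLI2 held 17 and 23 and GLI3 25 and 51. HHIP, another target, held 1 and 0. The highest members, PRKACA (26.3 TPM) and SPOP (17.9 TPM), encode a kinase subunit and a ubiquitin ligase adaptor that act on many other proteins.

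Short signatures of the medulloblastoma classes gave no clear leader. None of 5 SHH genes was a member (SFRP1 6 and 16 fragments, PDLIM3 5 and 5, EYA1 0 and 2, HHIP 1 and 0, ATOH1 0 and 0). Of 5 WNT genes, GAD1 (94 and 135 fragments) and TNC (56 and 85) were members, while WIF1, DKK2 and EMX2 were at 0. Of 6 Group 3 genes, the GABA receptor subunit GABRA5 (151 and 225 fragments, 11.7 and 11.3 TPM) and NRL (20 and 28) were members. Of 6 Group 4 genes, only OAS1 (115 and 158 fragments) was. MYCN, amplified in some tumours of the SHH class, held 0 and 2 fragments, and MYC held 294 and 407 (17.1 TPM).

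Neuronal and glial markers were mostly at or near 0, with single high exceptions. Of 24 neuron markers, 7 were members. UCHL1, a ubiquitin hydrolase abundant in neurons, held 16183 and 24669 fragments (2054 and 2031 TPM), while the next, ENO2, reached 5.62 TPM. STMN2, NCAM1, NEFM, ELAVL4 and GAD2 were at 0 in both libraries, and the neuronal tubulin TUBB3 held 14 and 21 fragments. Of 9 astrocyte markers, GJA1 and ALDOC were members, and GFAP held 12 and 19 fragments. Of 10 oligodendrocyte lineage markers, CNP (3606 and 5827 fragments, 136 and 143 TPM) and MBP (116 and 170) were members, and OLIG2 was at 0. Neural stem and progenitor markers gave 8 of 17 members (47.1%, beside 51.5% of all coding names), headed by VIM and CD44, which many other cells also express. NES held 35 and 69 fragments, SOX2 0 and 2, and FABP7 and HES5 none. Among genes below the minimum, some shared more than 10% of their exon bases with another name. These were 3 of 17 neuron, 1 of 7 astrocyte, 2 of 8 oligodendrocyte lineage and 1 of 9 neural stem and progenitor markers.

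Leukocyte and endothelial markers were nearly absent. Only ITGAM (25 and 21 fragments) of 12 microglia and leukocyte markers was a member, and none of 8 endothelial markers was. PTPRC held 0 and 2 fragments, and CSF1R, CDH5, CLDN5 and FLT1 none.

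Mesenchymal markers gave 15 of 30 members and epithelial markers 5 of 18 (27.8%), where 51.5% of all coding names were members. By level the order was reversed. The median was 6.57 TPM for mesenchymal and 370 TPM for epithelial members, beside 9.14 TPM over all coding members. The intermediate filament VIM held 13811 and 21475 fragments (748 and 754 TPM), the hyaluronan receptor CD44 reached 83.3 TPM, and the transcription factors TWIST2 and TWIST1 reached 19.4 and 9.99 TPM. N-cadherin (CDH2) held 212 and 294 fragments and fibronectin (FN1) 396 and 600, whereas COL1A2, POSTN and THY1 were at 0. Of the 5 epithelial members, 3 were keratins of simple epithelia, and the other 13 genes of the list lay below the minimum. KRT7 held 17168 and 26027 fragments (1203 and 1183 TPM), KRT18 reached 786 TPM and KRT8 370 TPM. The epithelial adhesion genes CDH1 (0 and 2 fragments) and EPCAM (2 and 10), and GRHL2 (0 and 0), a regulator of epithelial genes, were not members.

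**Figure D4:**
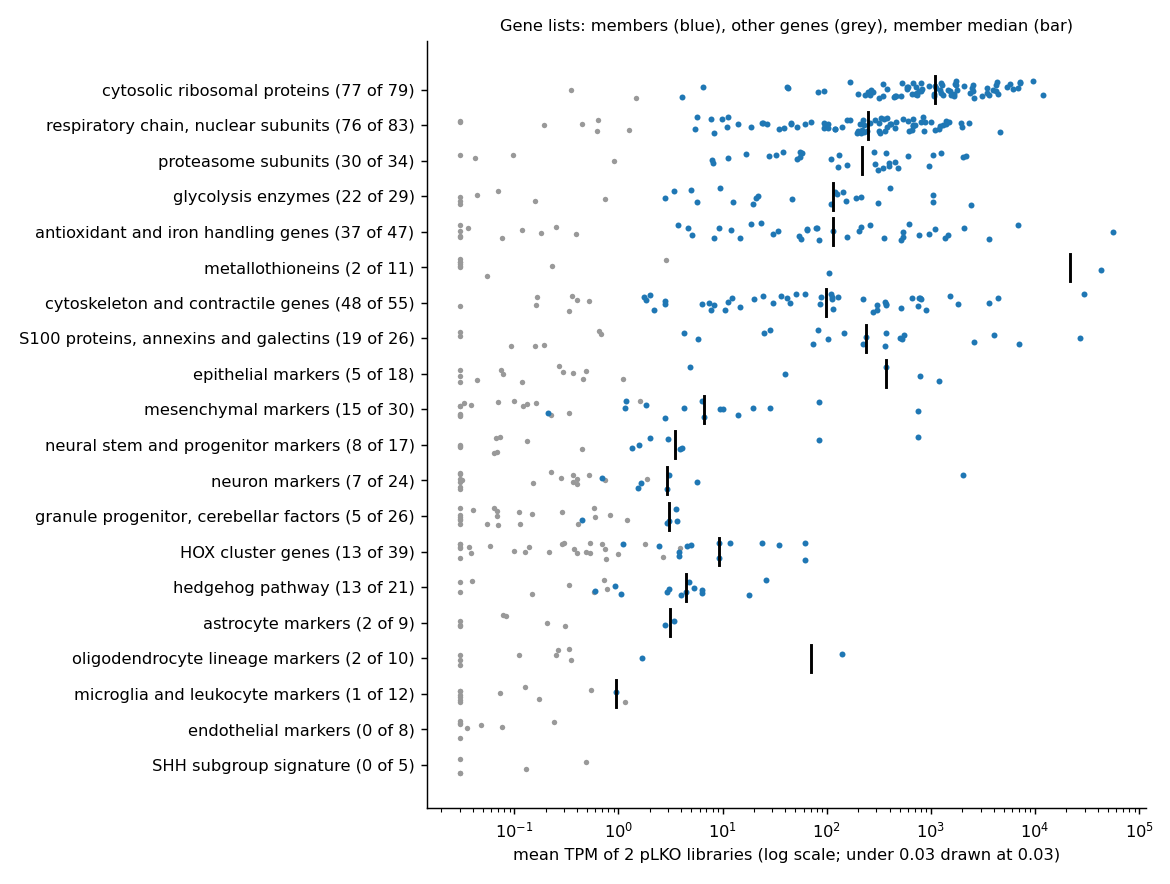
Mean TPM of the 2 pLKO libraries (horizontal axis, log scale, values under 0.03 drawn at 0.03) for the genes of 20 lists (rows, with the number of members of those in the table). Blue points are members, grey points are other list genes and bars are member medians; ribosomal proteins centre on 1105 TPM, and granule progenitor factors stay at or below 3.64 TPM.

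HOX genes, which pattern the trunk and the hindbrain behind the cerebellum, were members in 13 of 39 cases. HOXD9 held 411 and 629 fragments (61.5 and 61.1 TPM), HOXB7 355 and 476 (65.4 and 56.9 TPM), HOXC9 reached 34.9 TPM, HOXD11 23.8 TPM and HOXD10 11.7 TPM. HOXB13, of the posterior end of its cluster, held 50 and 88 fragments. Members came from the HOXB, HOXC and HOXD clusters and none from HOXA, where HOXA9 was at 0. Of the 26 HOX genes below the minimum, 12 shared more than 10% of their exon bases with another name.

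Among transcription factors of growth and identity, 49 of 61 were members (median 17.1 TPM). ID1 (2478 TPM) and ID3 (2214 TPM), inhibitors of basic helix-loop-helix factors, and HMGA1 (2287 TPM), a chromatin protein high in fetal and tumour cells, headed the list, with the AP-1 subunit FOSL1 at 346 TPM. ID4 was at 0. Of the 45 listed cell cycle genes, 38 were members (median 27.2 TPM). Within the list, the helicase subunit MCM7 (340 TPM), the survivin gene BIRC5 (328 TPM), CCND3 (284 TPM) and PCNA (284 TPM) led. CDC20, a cell cycle gene outside the list, held 5008 and 7551 fragments and ranked above MCM7 by TPM. CCND2 held 0 and 3 fragments. Of the 7 cell cycle genes below the minimum, 4 shared more than 10% of their exon bases with another name. The cell cycle inhibitor CDKN1A reached 206 TPM.

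The tumour suppressors CDKN2A and CDKN2B, inhibitors of the cyclin D kinases, held 0 and 1 and 0 and 0 fragments. Their neighbour on chromosome 9, MTAP, an enzyme of methionine salvage, held 1 and 5. On the side of MTAP, the interferon genes held 0 to 2 fragments, KLHL9 among them held 69 and 92, HACD4 beyond them held 5 and 0, and FOCAD held 481 and 719. On the side of CDKN2B, DMRTA1 held 13 and 18. Of the exon bases of CDKN2A, 15.3% are shared with CDKN2B-AS1, and of those of CDKN2B none are. The neighbours were chosen after their values were seen, and no DNA was measured.

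Receptor tyrosine kinases gave 20 of 54 members (median 5.80 TPM). The ephrin receptor EPHA2 held 1093 and 1603 fragments (74.0 and 70.3 TPM) and AXL 1038 and 1625 (56.6 and 57.5 TPM), ahead of ERBB2 at 20.9 TPM and EPHB4 at 12.6 TPM. EGFR held 51 and 98 fragments and PDGFRA 3 and 7. Notch genes gave 16 of 23 members, led by the gamma-secretase subunit NCSTN (61.3 TPM) and the ligand DLL3 (55.0 TPM), and WNT genes 24 of 48, led by DVL1 (124 TPM) and the receptor FZD2 (56.2 TPM). AXIN2, a common WNT target, held 10 and 10 fragments. Integrins and other adhesion receptors gave 28 of 44 members, led by the tetraspanin CD151 (1619 TPM), BSG (908 TPM) and CD81 (859 TPM), with the laminin receptor subunit ITGA3 at 313 TPM.

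Secreted genes included inflammatory chemokines and proteins of matrix turnover. Chemokines and cytokines gave 24 of 45 members (53.3%, beside 51.5% of all coding names), with a median of 15.3 TPM. The neutrophil attractants CXCL5 (216 and 221 TPM) and CXCL2 (189 and 189 TPM) led, followed by VEGFB (140 TPM) and the granulocyte growth factor CSF3 (129 and 136 TPM). CXCL12 was at 0. Matrix genes gave 35 of 53 members (median 12.7 TPM), led by the protease inhibitor TIMP1 (2304 TPM), with the laminin chain LAMB3 (619 TPM) and the urokinase PLAU (257 TPM). SPARC held 2 and 2 fragments.

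S100 proteins, annexins and galectins gave 19 of 26 members and 4.35% of all TPM, from S100A6, LGALS1, S100A16 (4018 TPM) and S100A11 (2601 TPM) above all. S100A8 and S100B were at 0. Cytoskeletal genes gave 48 of 55 members and 4.94% of all TPM, with TMSB10 far above PFN1, MYL6 (3623 TPM) and CFL1 (1826 TPM). HLA class I genes were counted, with HLA-B at 913 TPM, while the class II genes HLA-DRA and HLA-DRB1 were at 0. HLA alleles differ in sequence, so these levels are uncertain.

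Among non-coding members, the highest names by TPM were processed copies of ribosomal protein genes, RPS28P7 (9856 and 10142 TPM) and RPL3P4 (5033 and 5069 TPM). SNHG19, a host gene of small nucleolar RNAs, led the typed long non-coding RNAs at 886 and 827 TPM. Among 35 listed long non-coding RNAs, SNHG6 followed at 281 TPM, and GAS5 reached 92.7 TPM. Outside these, SNHG9 held 1022 and 1508 fragments and ranked between SNHG19 and SNHG6 by TPM. MALAT1 held 263 and 438 fragments (8.68 TPM), and H19 and HOTAIR none. The libraries were enriched for mRNA with capture beads. Replication-dependent histones, whose mRNAs mostly lack a poly(A) tail, gave 8 of 66 members, of which H1-2 (874 and 1309 fragments) was highest, and a list of polymerase III and small nuclear RNAs gave 1 of 18, RN7SL1 (114 TPM). Outside that list, RNU6-8, a copy of the U6 small nuclear RNA, was a member with 586 and 870 fragments (1534 and 1477 TPM).

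The libraries were compared with each other to give the error behind these levels. Over the members, log2 CPM correlated at r = 0.994 (Spearman 0.992) across genes, which are not independent replicates, and 60.9% of members lay within 1.1-fold. An exact conditional binomial test (two-sided, Benjamini-Hochberg over all members) called 80 of 10988 members different at 0.05, or 0.728%, with 31 higher in library 1 and 49 in library 2. With TMM-scaled totals 105 were called, 19 and 86, of which 68 were shared with the 80. The test compares these libraries and not a condition, and it covers counting error only, with fragments taken as independent although PCR copies are not. The minimum in both libraries also keeps out names counted in only 1 of them. The spread followed depth: the SD of the log2 ratio was 0.38 for members averaging 20 to 50 fragments and 0.04 at 10000 or more. The calls also followed depth, with 0 of 1678 members called at 20 to 50 fragments and 17 of 161 (10.6%) at 10000 or more. MT2A, RPS21, RPS2 and EEF1A1 were among the called names. Chi-square per degree of freedom was 1.81, and the common biological coefficient of variation from edgeR was 0.0421. The chi-square is summed over all members, so names with many fragments and a large ratio weigh heavily in it. IGF2R, with 3747 and 14370 fragments, is 1 of them. The value 1.81 therefore does not describe the typical member. Some names differed between the libraries by more than sampling noise, and the libraries were kept as 2.

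A few names had log2 ratios far outside the SD given above, described here without their p-values. Pseudogenes made up 18 of the called names (7.56% of 238) and coding genes 56 (0.561% of 9984), and the difference between these shares was not tested. FTH1P2, a copy of FTH1, held 759 fragments in library 1 and 44 in library 2 (log2 ratio 4.73), while FTH1 held 221 and 337. RPSAP19, a copy of RPSA, went the other way with 154 and 2542 fragments (log2 ratio -3.42), while RPSA held 32456 and 52458. RPS15AP1 held 55 and 520. Among coding genes, CDC26, a subunit of the anaphase-promoting complex, held 28 and 241 fragments (log2 ratio -2.48). IGF2R, the receptor that carries IGF2 and lysosomal enzymes to lysosomes, held 3747 and 14370 (417 and 1038 CPM, log2 ratio -1.32). LLPH, chosen after its values were seen, held 3694 and 12007 (log2 ratio -1.08). Their levels in Daoy cannot be given closer than these pairs of values. EIF3C with 63 and 40 fragments (log2 ratio 1.28), FAM160B1 with 92 and 67 (1.08), IFT74 with 72 and 56 (0.99) and RPSAP58 with 862 and 701 (0.92) were higher in library 1 after scaling.

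**Figure D5:**
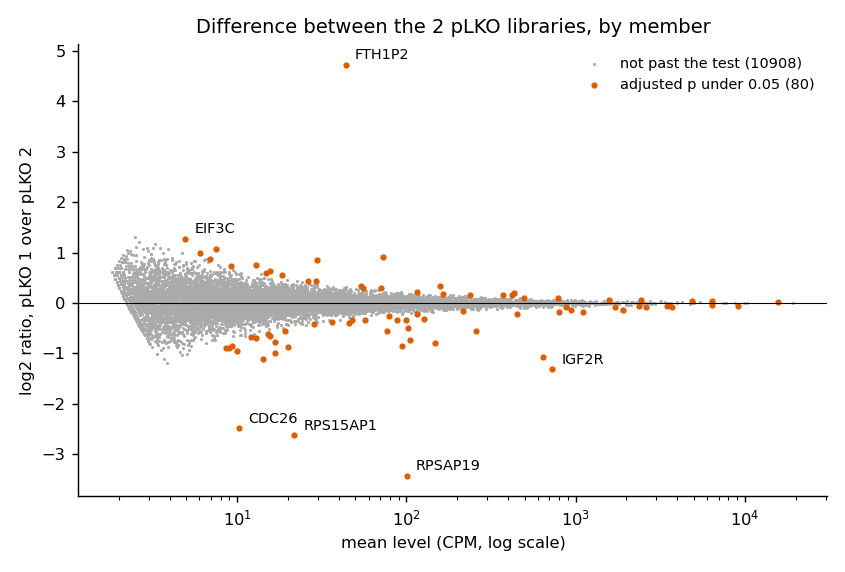
Log2 ratio of CPM in pLKO library 1 over library 2 (vertical axis) against mean CPM (horizontal axis, log scale), 1 point per member; orange points passed the exact binomial test (80) and grey points did not. Most points lie near 0 with a spread that narrows as level rises, and FTH1P2 (4.73), RPSAP19 (-3.42), CDC26 (-2.48) and IGF2R (-1.32) lie far outside it.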

How the data were processed

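RNA was measured by RNA-seq in 2 pLKO libraries of Daoy cells. The labels' protocols name TRIzol for RNA preparation, beads for mRNA capture and Tn5 for fragmentation. FastQC, HISAT, StringTie and the build GRCh38 are named, without versions, in the submitters' processing notes. The table deposited by the authors holds raw fragment counts by gene name over exons, from featureCounts 2.0.0 with GENCODE 38, per the file headers. Its recorded command excludes chimeric fragments and sets no option for strand or for multiple overlaps, so antisense partners and paralogs are uncertain. ANK2, broken over 7 lines, was left out.

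CPM used the library total and TPM the deposited merged exon length, which exceeds a transcript where isoforms differ. Gene types, shared exon bases, transcript length and GC used the count table, GENCODE 29 (63.6% of names matched) and RefSeq. The exact binomial test was run in Python 3.11.15 with scipy 1.17.1 and was tested on simulated data, and TMM and dispersion came from edgeR 4.0.16 and size factors from DESeq2 1.42.0, in R 4.3.3. Motifs were counted per promoter.

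The members and the 39 lists (1219 genes, 1216 in the table) were chosen with earlier results of these data known. Named genes were the 25 highest coding members by TPM, the 10 highest by CPM, the 10 highest non-coding members, up to 4 leading members and the low or absent defining genes of each list (any gene for markers, classes, pathways and receptors), the 5 largest called library ratios each way, the names nearest the minimum and FABP4. Alternatives were other minimum counts, scalings and lengths, and each library left out. A few items that this rule names are withheld and not reported here.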

Additional observations from a re-analysis of the deposited data

How the results depend on the processing

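The number of members was 12599, 8673 and 10722 with a minimum of 10 fragments, of 50 or of an equal CPM, 21110 with a minimum of 1, and 11046 to 12138 without a library. The 100 highest names held 30.64% of fragments (30.44% over all names, 30.6% to 30.68% without a library) and 46.3% of TPM (45.76% over all names, 44.16% with the longest transcript as length, 45.91% with a length without shared exon bases, 46.27% to 46.32% without a library). Ribosomal proteins held 15.05% of TPM (17.51% with the longest transcript, 15.01% to 15.09% without a library), with a median of 1105 TPM (1359 with the longest transcript, 1123 without shared bases, 1103 to 1107 without a library). The cause of these shifts was not tested. The length without shared bases was chosen after seeing the data. Between the libraries, 105 names were called with TMM totals, 76 with a minimum of 1 and 86 with a minimum of 50, against 80. Scaling moved no named level, taken as the mean of the libraries, by more than 1.0015-fold. Levels of a single library moved more, with TMM factors of 1.0058 for library 1 and 0.9942 for library 2. These factors act in opposite directions, so the mean of both libraries hardly moves whatever the gene's precision. The DESeq2-scaled total of library 1 was 9057599 against 8988961 fragments. Of 350 list values under these alternatives, 242 moved by less than the spread between libraries and 108 by more. The shares of promoters with TATAA and a pyrimidine start were 12.5% and 37.5% when the 100 highest were ranked by CPM, against 12.15% and 37.38%. No paired analysis was possible because only the control libraries were described and no groups were compared. Members averaging 20 to 50 fragments had a spread of 0.38 log2 units between the libraries, which limits the precision of their levels.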
